A study of Mus musculus with 3 samples.

Results

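The genes described here are 9 basic leucine zipper (bZIP) transcription factors linked to CREB signalling, and Sik1, a kinase that restrains CREB activity. They were taken by name from a fixed list: Creb1, Crem, Atf1, Atf3, Nfil3, Maff, Mafk, Cebpb, Cebpd and Sik1. These are 10 of the 25562 genes counted. In the files 9 stand under these symbols, and Sik1 stands under its older symbol Snf1lk, matched through its gene identifier 17691. Their RNA was measured in cultured neurons of wild-type mouse embryos (C57Bl/6 background), taken at embryonic day 14 from the MGE (medial ganglionic eminence), a source of many of the cortex's inhibitory neurons. The cultures were grown for 10 days. On day 9 all of them, the controls included, were silenced overnight with TTX, which blocks sodium channels, together with AP-5, which blocks NMDA receptors. The 0 h group was left unstimulated, and the other groups were depolarized for 1 h or 6 h with 55 mM extracellular KCl. Each time is 1 library of ribosome-depleted total RNA, so no test between times could be made.

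CREB (Creb1), CREM and ATF1 form a small family of bZIP proteins that bind the cAMP response element (CRE) as dimers. Depolarization lets calcium into a neuron, calcium-dependent kinases phosphorylate CREB already bound to DNA, and coactivators are then recruited to target genes. Crem is itself such a target: an internal promoter gives a short repressor form, ICER, which keeps the DNA-binding domain and lacks the activation domains. Sik1 is another target, whose kinase phosphorylates and so excludes the CRTC coactivators from the nucleus. Atf3 and Nfil3 are induced bZIP factors that mostly repress, Maff and Mafk are small MAF proteins without an activation domain, and Cebpb and Cebpd are C/EBP activators.

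The libraries held between 8549377 and 8996897 uniquely mapped reads, of which 2189394 to 2480579 were sense exonic reads. Counts were compared after TMM scaling, which equalises libraries on the bulk of genes. Each ratio carries an exact 95% interval that covers counting error only, since variation between cultures was not measured. A gene was called at least 2-fold higher or lower when the ratio reached 2 or 0.5, the interval excluded 1, and either library held at least 20 reads. All 15 markers of MGE-derived interneurons were measured, at summed levels of 5380, 5152 and 6845 RPM (read rates scaled to the TMM-adjusted library size) at 0, 1 and 6 h. None of 7 excitatory neuron markers reached 20 reads, and 5 of 7 microglial markers had 0 reads in every library. Astrocyte and radial glia markers (9 of 9 measured) held 2563, 2659 and 2774 RPM. Their part in the values below was not tested, and in such bulk RNA a change in cell number cannot be told apart from a change in RNA per cell.

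Promoter sequence shows which of the genes carry a CRE next to an annotated start. RefSeq promoters on GRCm38.p6, each running 250 bases before to 50 after a start, were on hand for 7 of the 10 members in 9 entries. Crem, Sik1 and Cebpd had no entry, so whether they carry a CRE was not analysed here. The full CRE, TGACGTCA, occurred in 1 of the 9 entries, the second of 3 starts of Maff, 29 bases before the start. It occurred in 588 of all 32851 promoters, or 1.79%. The CRE core TGACG, read on both strands and so also found inside the full CRE, occurred in 7 of the 9 entries and in 20.8% of all promoters. Atf3 holds it 7 bases and Nfil3 59 bases before the start, both on the opposite strand. Mafk holds it 41 bases and Atf1 90 bases before the start, Cebpb holds 3 copies and the third start of Maff holds 1. The Creb1 promoter and the first start of Maff hold none. Of the genes with the core, Maff and Atf3 were called higher in exonic reads at 1 h. Nfil3 and Mafk were measured and met no exonic call at 1 h. Atf1 and Cebpb had too few exonic reads for a call. A link between the core and the response was not tested. The AP-1 site TGANTCA and the CArG box, the binding site of SRF, occurred in 0 of the 9 entries and in 7.81% and 1.63% of all promoters. The upstream 250 bases of 4 genes follow, 5′ to 3′ on the gene's strand, with the CRE core or full CRE in capitals. They show the full CRE, the core close to and farther from a start, and a promoter without either. A match is a description of the letters, not of binding.
Maff (second start, chr15:79347270-79347519, plus strand): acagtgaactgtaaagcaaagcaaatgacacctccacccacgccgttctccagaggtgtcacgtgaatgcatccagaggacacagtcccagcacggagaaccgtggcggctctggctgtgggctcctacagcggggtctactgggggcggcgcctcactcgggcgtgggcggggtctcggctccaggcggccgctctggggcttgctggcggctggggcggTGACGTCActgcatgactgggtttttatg
Atf3 (chr1:191183334-191183583, minus strand): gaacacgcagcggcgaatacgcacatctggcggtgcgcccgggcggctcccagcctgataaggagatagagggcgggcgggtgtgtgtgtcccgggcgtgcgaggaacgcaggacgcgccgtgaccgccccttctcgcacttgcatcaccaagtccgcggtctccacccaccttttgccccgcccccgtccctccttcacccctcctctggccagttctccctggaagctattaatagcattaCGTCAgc
Nfil3 (chr13:52981040-52981289, minus strand): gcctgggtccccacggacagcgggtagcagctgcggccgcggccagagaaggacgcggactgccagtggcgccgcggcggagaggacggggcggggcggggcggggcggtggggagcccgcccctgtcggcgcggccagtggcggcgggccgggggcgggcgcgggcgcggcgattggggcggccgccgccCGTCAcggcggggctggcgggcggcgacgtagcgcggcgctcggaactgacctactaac
Creb1 (chr1:64532554-64532803, plus strand): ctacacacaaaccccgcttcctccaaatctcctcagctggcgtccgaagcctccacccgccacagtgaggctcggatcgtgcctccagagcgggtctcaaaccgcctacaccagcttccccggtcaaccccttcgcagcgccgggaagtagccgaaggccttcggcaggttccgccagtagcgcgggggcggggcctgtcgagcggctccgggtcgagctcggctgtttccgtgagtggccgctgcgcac

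In the silenced cultures Creb1 was the most abundant member per length and Maff the least. On the authors' coverage, which counts read bases per exonic base per 10000000 mapped reads, Creb1 stood at 1.38 (interval 1.23 to 1.55), Sik1 at 1.02 and Nfil3 at 0.991. Atf1 (0.708, from 8 reads) and Crem (0.487) followed, then Atf3 (0.240), Cebpb (0.214) and Mafk (0.172). Cebpd (0.0348) and Maff (0.0221) rested on 2 reads and 1 read. No neighbours in this order had separate counting intervals. At 1 h Sik1 led at 3.91 (3.53 to 4.31), apart from Nfil3 at 2.04, and Maff came next at 1.65 (1.29 to 2.08). Maff had moved from the last place to a level whose interval overlapped that of Creb1, 1.59 (1.42 to 1.78). At 6 h Nfil3 at 3.72 (3.20 to 4.30) and Sik1 at 3.19 (2.85 to 3.56) led with overlapping intervals, Creb1 (2.55) and Crem (2.13) came next, and the other 6 lay at or below 0.505.

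**Figure D1:**
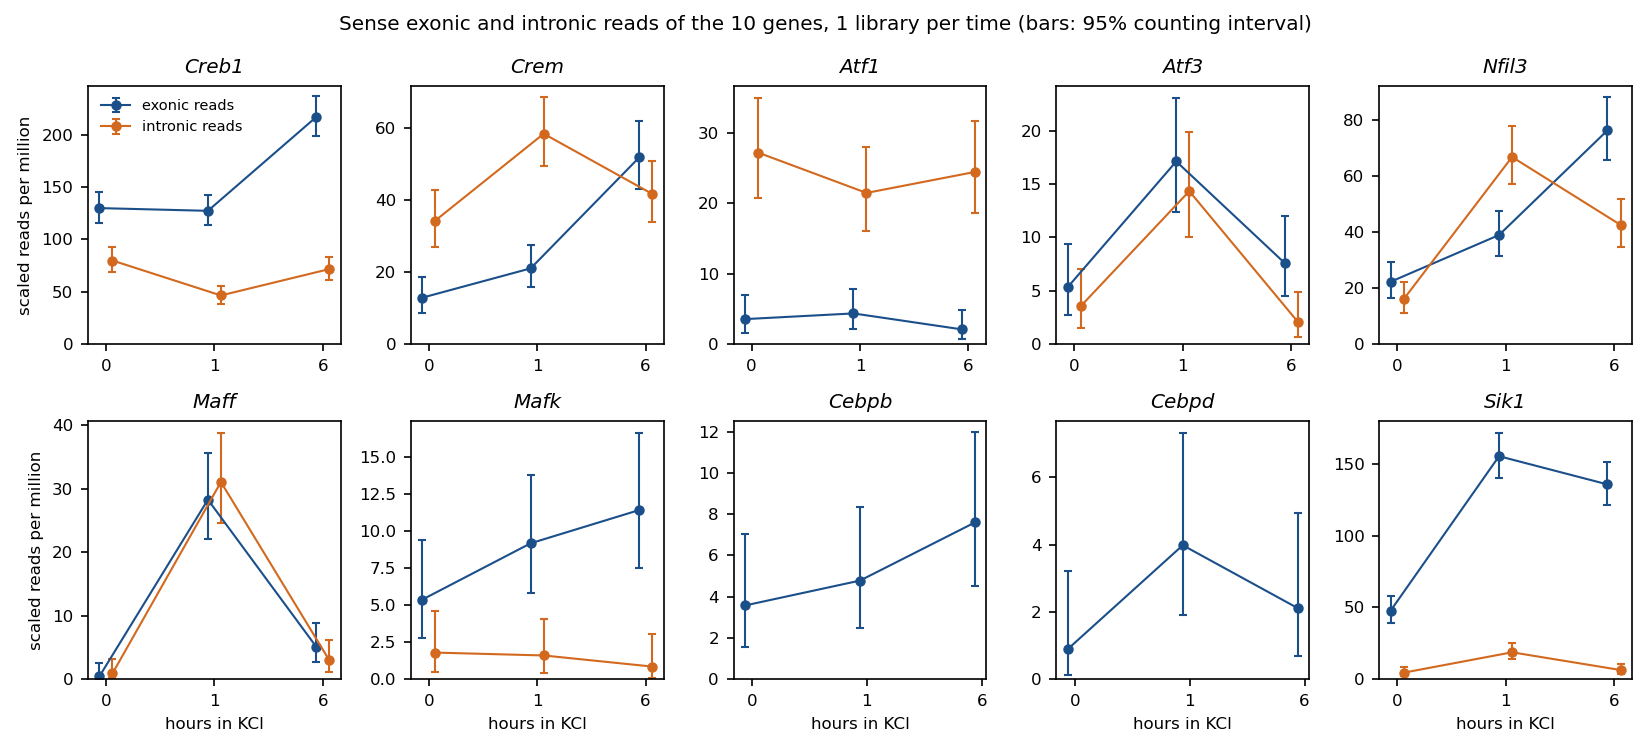
Sense exonic (blue) and intronic (orange) read rates (RPM, scaled by TMM) of each gene against hours in KCl, with 1 library per point and bars for the 95% counting interval; panels have their own vertical scales. Maff, Atf3 and Sik1 have their highest exonic value at 1 h, and Crem, Nfil3 and Creb1 at 6 h.

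The comparison of 1 h with 0 h asked which members differed early in depolarization. Of 7 measured members 3 were at least 2-fold higher, none was lower and 4 were neither, where the same rule called 1.58% of 10093 genes higher and 1.43% lower. The members were chosen with earlier results of these data known, so the share is a description. Maff and Atf3 passed the 20-read minimum only through the 1 h library, in which they were high, so the count supports nothing further. The median log2 ratio of the 7 was 0.80, against 0.01 over all genes compared.

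The 3 higher genes were Maff, Sik1 and Atf3. Maff (chromosome 15, 79178108 to 79189506, mm9), the small MAF protein, had 1, 71 and 12 exonic reads at 0, 1 and 6 h. The 1 h library was the highest and the 0 h library held 1 read, and the ratio of 1 h to 0 h was 63.3 (interval 11.0 to 2536). Sik1 (chromosome 17, 31981193 to 31992737), the kinase that acts on CRTC coactivators and class IIa histone deacetylases, had 107, 391 and 322 reads. Both depolarized libraries were above the control, and at 1 h the ratio was 3.26 (2.63 to 4.08). Atf3 (chromosome 1, 192994175 to 193007212), a stress-induced factor that represses as a homodimer, had 12, 43 and 18 reads. The 1 h library alone stood apart, at a ratio of 3.20 (1.66 to 6.66).

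Among the others, Nfil3 (50, 98 and 181 reads) had a ratio of 1.75 (1.23 to 2.51) at 1 h. Scaled to all mapped reads, which lifts every gene by 0.24 on the log2 scale and makes 85.1% of the genome-wide calls higher ones instead of 52.5%, it reached 2.06 and met the rule. Crem stood at 1.63 (1.02 to 2.66) and Mafk, a small MAF partner of the CNC and BACH factors, at 1.71 (0.816 to 3.77). Creb1 had 291, 320 and 514 reads, and its ratio at 1 h was 0.981 (0.834 to 1.15), or 1.16 when scaled to all mapped reads. With TMM scaling the RNA of this factor, which is phosphorylated at the start of the response, thus differed by less than counting error at 1 h.

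The second comparison set 6 h against 0 h. Of 5 measured members 4 were at least 2-fold higher and 1 was neither, against 4.92% of 10095 genes called higher and 5.42% lower. The median log2 ratio was 1.5, against 0.00 over all genes. Crem (chromosome 18, 3266354 to 3327517) had 29, 53 and 123 exonic reads, higher at each later time. Its ratio at 6 h was 4.01 (2.66 to 6.24), the highest of the 5. Nfil3 (chromosome 13, 53062578 to 53076408), also called E4BP4, a repressor that binds the sites of PAR bZIP activators, followed at 3.42 (2.49 to 4.78). Sik1 was still 2.85-fold higher (2.28 to 3.58).

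Mafk (chromosome 5, 140267490 to 140278606) held 12, 23 and 27 reads, of which the control had the fewest. It was 2.13-fold higher at 6 h (1.04 to 4.61). This call rests on few reads, with the 20-read minimum met only at 6 h of the 2 libraries compared: scaled to total exonic reads the ratio was 1.99, under the threshold. Creb1 (chromosome 1, 64579378 to 64651122) was the member that met no call, with a ratio of 1.67 (1.44 to 1.94) whose interval lies between 1 and 2. Maff had too few reads at 0 and 6 h for the rule, with a ratio of 11.4 (1.68 to 485) that rests on 1 read at 0 h.

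Atf1, Cebpb and Cebpd stayed under 20 exonic reads in every library, so differences of these sizes were not detectable at this depth. Atf1 (chromosome 15, 100058290 to 100091679) had 8, 11 and 5 reads. The authors' mappability index of its exons was 0.210, against 0.913 to 1.00 in the other 9 members, so its exonic level is uncertain. Cebpb (chromosome 2, 167514415 to 167515918), a gene of 1 exon, had 8, 12 and 18 reads, and the ratio at 6 h was 2.13 (0.880 to 5.66). Cebpd (chromosome 16, 15887379 to 15889638), also of 1 exon, had 2, 10 and 5 reads, and at 1 h the ratio was 4.46 (0.95 to 41.9). Neither interval excludes 1.

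From 1 h to 6 h the members moved in both directions. Crem was 2.46-fold higher (1.77 to 3.46), where 4.17% of 10137 genes were called higher. Maff was 5.58-fold lower (3.0 to 11.3) and Atf3 2.25-fold lower (1.27 to 4.15), where 4.63% of genes were called lower. Maff had 71 reads at 1 h and 12 at 6 h, and Atf3 had 43 and 18. Both passed the read minimum only through the 1 h library, in which they were high, so these calls are a description. The other 4 measured members were neither: Nfil3 at 1.96 (1.52 to 2.53), Creb1 at 1.70 (1.48 to 1.96), Mafk at 1.25 (0.687 to 2.27) and Sik1 at 0.873 (0.751 to 1.02). The 0 h library enters both earlier comparisons, and the 1 h library enters this one and the first. By these values Maff and Atf3 were highest at 1 h, Crem, Nfil3 and Creb1 at 6 h, and Sik1 was near its 1 h level at 6 h.

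Total RNA also holds unspliced transcripts, and intronic reads sample them. Scaled like the exons, the intronic reads of all genes were lower at 1 h: the median ratio over 8143 genes was 0.632 (log2 of -0.66), with 27.2% of genes called lower and 2.59% higher. Of 7 members with enough intronic reads 4 were at least 2-fold higher at 1 h. Maff, Atf3 and Sik1 passed the minimum only through the 1 h library, in which they were high, so this count is a description and no support. Nfil3 had 36, 168 and 101 intronic reads at 0, 1 and 6 h, all in its single intron, a ratio of 4.16 (2.89 to 6.14) at 1 h. Sik1 had 10, 47 and 15, a ratio of 4.19 (2.09 to 9.30). Atf3 had 8, 36 and 5, a ratio of 4.01 (1.83 to 10.00), and Maff had 2, 78 and 7, a ratio of 34.8 (9.31 to 292). In all 4 genes the 1 h library was the highest.

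Creb1 had 179, 117 and 170 intronic reads, and its ratio of 0.583 (0.458 to 0.740) at 1 h lay near the median of all genes. Atf1, with few unique exonic reads, had 61, 54 and 58 intronic reads and a ratio of 0.790 (0.537 to 1.16). When introns were scaled by their own TMM factors, an alternative chosen after seeing the data, the ratios at 1 h were 6.35 for Nfil3, 6.40 for Sik1, 6.13 for Atf3, 53.1 for Maff, 0.890 for Creb1 and 1.21 for Atf1. Crem, at 1.70 (1.28 to 2.27) with the exonic factors, was then 2.60-fold higher (1.96 to 3.47) and the fifth called member, where the rule called 7.48% of all genes higher and 6.19% lower.

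At 6 h only Nfil3 of 4 members with enough intronic reads was at least 2-fold higher than at 0 h, at 2.65 (1.80 to 4.0), where 3.08% of 8236 genes were called higher and 10.5% lower. From 1 h to 6 h the intronic reads were lower for Maff by 10.5-fold (4.87 to 27.0), for Atf3 by 6.79-fold (2.66 to 22.2) and for Sik1 by 2.95-fold (1.62 to 5.69), against 2.65% of 7734 genes called lower and 15.5% higher. Over the same step the median of all genes was higher, at 1.32. Maff, Atf3 and Sik1 again passed the minimum only through the 1 h library, so these calls are a description. Nfil3 was lower by 1.57-fold (1.22 to 2.03), and with the introns' own factors by 2.02-fold, the fourth member called lower. With those factors the rule called 5.79% of all genes lower and 7.07% higher over this step, and 5.27% higher and 5.59% lower at 6 h against 0 h.

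Exonic and intronic reads of a gene can be set against each other in an odds ratio that does not depend on the scaling factors. It still carries any shift in a library's balance of exonic and intronic reads. The median intronic ratios over all genes were 0.632 from 0 h to 1 h and 1.32 from 1 h to 6 h. The exonic medians were both 1.01, so an odds ratio of 1 is not that of a typical gene. Between 1 h and 6 h the exonic reads of Nfil3 gained on its intronic reads by 3.07-fold (2.14 to 4.42), those of Crem by 3.45-fold (2.24 to 5.31) and those of Sik1 by 2.58-fold (1.39 to 5.06). For Creb1 the value was 1.11 (0.832 to 1.47). Atf3, at 3.01 (0.944 to 11.3), and Maff, at 1.88 (0.639 to 5.96), had intervals that include 1. From 0 h to 1 h the exonic reads of Nfil3 lost on the intronic ones, with an odds ratio of 0.420 (0.248 to 0.710). For Creb1 the value over that step was 1.68 (1.26 to 2.25). Nfil3 and Crem had their highest intronic value at 1 h and their highest exonic value at 6 h, as the plot of levels by time shows.

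**Figure D2:**
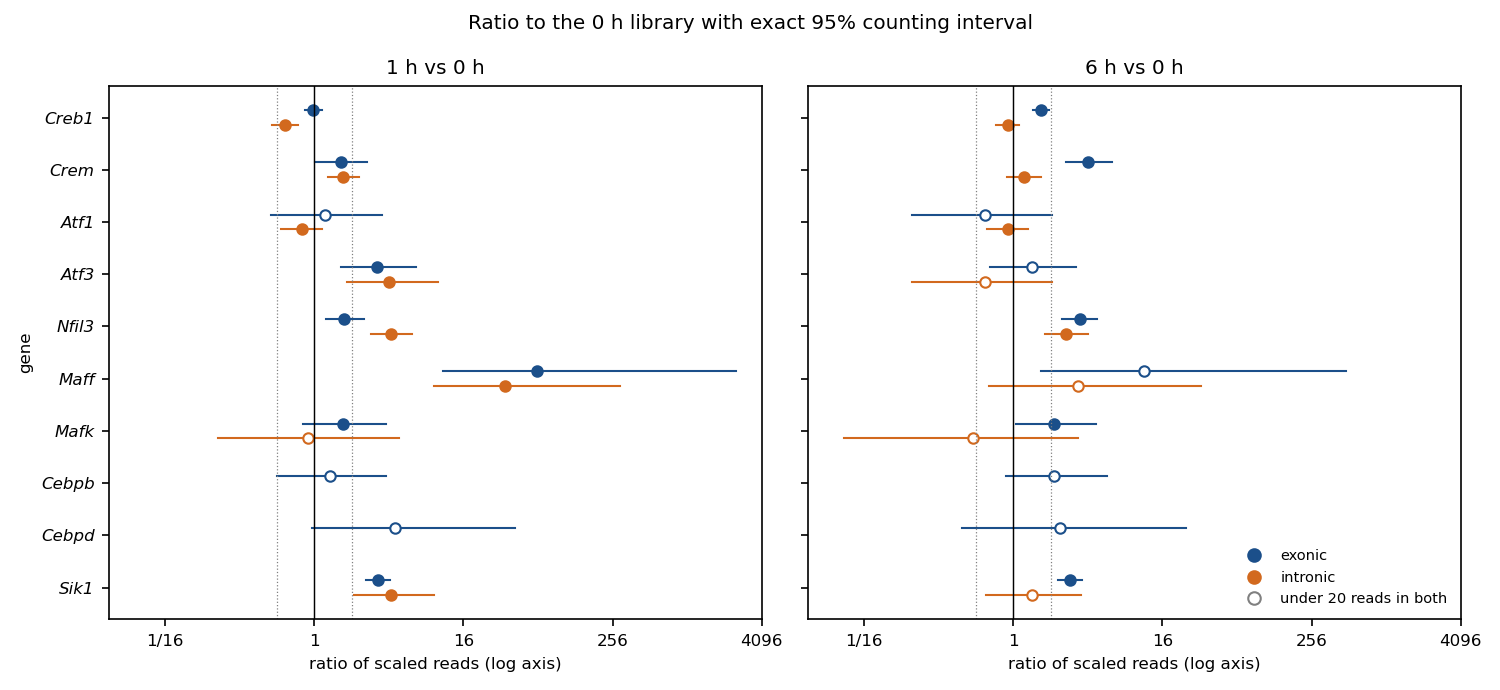
Ratio of scaled reads to the 0 h library at 1 h (left) and 6 h (right) on a log axis, for exonic (blue) and intronic (orange) reads, with exact 95% counting intervals; open circles have under 20 reads in both libraries and dotted lines mark 2-fold. Intronic ratios of Atf3, Nfil3, Maff and Sik1 lie at or above 4.01 at 1 h. At 6 h the exonic ratios of Crem, Nfil3, Sik1 and Mafk lie above 2, as do the open circles of Maff, Cebpb and Cebpd.

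Crem was examined by exon and intron because of its short form. The gene model of the files has 7 exons and no exon for the ICER start. In the GENCODE M21 annotation on GRCm38, 7 of 39 Crem transcript models, all protein-coding, begin inside the intron that matches intron 4 of the files. The match was made by the lengths of exons 4 to 6 (143, 36 and 157 bases) and introns 4 to 6 (18310, 3115 and 5292 bases), which are the same in both annotations. These starts lie 4349 to 5040 bases before exon 5. Introns 5 and 6 and exons 5 to 7 therefore lie downstream of the short-form start, and introns 1 to 3 and exons 1 to 4 upstream. Full-length transcripts also cross the downstream part.

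The intronic reads of Crem differed in their position between the libraries. Introns 5 and 6 together held 13, 75 and 20 reads at 0, 1 and 6 h, which is 1.55, 8.92 and 2.38 reads per kb. Introns 1 to 4, which are 50408 bases long in sum against 8407, held 64, 72 and 79 reads. The downstream introns were 5.15-fold higher at 1 h (2.83 to 10.1), and introns 1 to 4 had a ratio of 1.00 (0.707 to 1.43). The latter pools intron 4, at 1.47 (0.962 to 2.28), with introns 1 to 3, whose reads were fewer at 1 h. The median intronic ratio of all genes at 1 h was 0.632, so 1.00 is not the value of a typical gene. The odds ratio of introns 5 and 6 over introns 1 to 4 was 5.13 (2.51 to 11.0) from 0 h to 1 h and 0.243 (0.128 to 0.452) from 1 h to 6 h. Downstream introns made up 16.9% of the intronic reads at 0 h (exact interval 9.31% to 27.1%), 51.0% at 1 h (42.7% to 59.3%) and 20.2% at 6 h (12.8% to 29.5%). Intron 4, which contains the start, had 37, 61 and 55 reads, and on which side of the start they lay was not analysed here. Introns 1 to 3, the part wholly upstream, held 27, 11 and 24 reads.

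The exonic reads of Crem were highest at 6 h. Exons 5 to 7 with their junctions held 28, 45 and 118 reads, a ratio of 1.43 (0.875 to 2.39) at 1 h and of 3.99 (2.62 to 6.25) at 6 h. Exon 6 had 3, 6 and 24 reads, and exon 7, which carries the last coding sequence and the 3′ end, had 23, 39 and 92. Exons 1 to 4 had 0, 8 and 5 reads and 1, 0 and 0 junction reads. Over 382 bases, against 1967 downstream, these counts allow no statement on the full-length form at 6 h: the ratio was 4.73 (0.529 to 224). The downstream exons held 96.6%, 84.9% and 95.9% of exonic reads, with exact intervals of 82.2% to 99.9%, 72.4% to 93.3% and 90.8% to 98.7%. Exons 5 to 7 gained on introns 5 and 6 by 9.83-fold between 1 h and 6 h (5.20 to 18.9). Junction reads that enter exon 5 from a short-form first exon were not analysed here, so the exonic reads downstream cannot be assigned to either form.

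**Figure D3:**
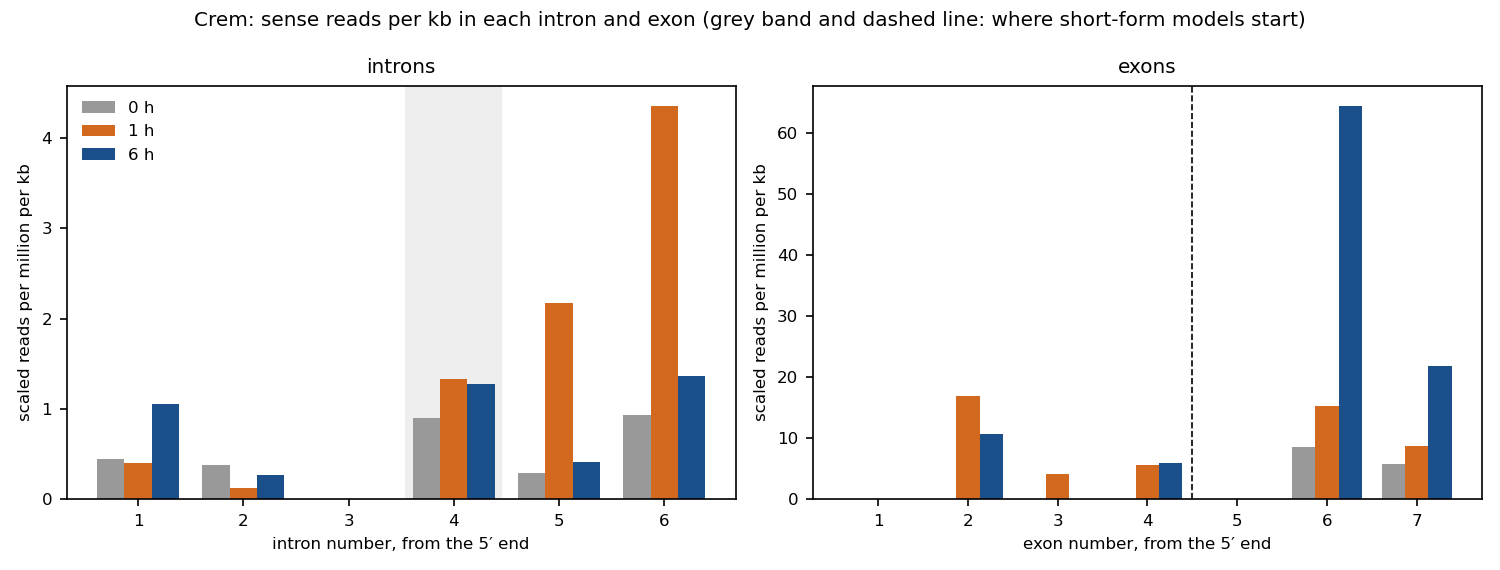
Sense read rates of Crem (RPM per kb, scaled by TMM) in each of 6 introns (left) and 7 exons (right) numbered from the 5′ end, for the 0 h (grey), 1 h (orange) and 6 h (blue) libraries; the grey band marks the intron in which short-form models start and the dashed line divides the exons at that intron. Intron 6 reaches 4.36 at 1 h against 0.928 at 0 h, and exon 6 reaches 64.5 at 6 h against 8.53.

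For Creb1 most exonic reads fell in its last exon of 7315 bases, with 243, 262 and 426 reads. Coding reads numbered 44, 58 and 88, so coding and 3′ reads were both highest at 6 h. Exon 4, of 42 bases, is the alternative exon that separates the alpha form of CREB from the delta form, which skips it. Junction reads from exon 3 to exon 5, the skipping form, numbered 0, 2 and 4, and those from exon 3 to exon 4 numbered 0, 1 and 0. These counts are at or near the floor of 3 reads in each library. Of the 8 introns of Creb1 the first held most reads, 91, 54 and 66.

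Sik1 was covered along its whole length: each of its 14 exons had at least 1 read in each library, and junction reads numbered 6, 33 and 37. Coding reads numbered 60, 201 and 178 and 3′ untranslated reads 45, 181 and 137, so both parts were higher in the depolarized libraries. Of the 47 intronic reads at 1 h, 28 lay in intron 3, where 5 lay at 0 h and 7 at 6 h. Maff had 12 coding and 55 3′ untranslated reads at 1 h, against 1 and 0 at 0 h, and its intronic reads were all in intron 1, of 9212 bases. The GENCODE model with introns of the same 2 lengths as the files' Maff starts at the promoter printed above. Its first exon has 235 bases, against 77 in the files, so the files' model starts farther downstream. Which of the 3 starts the reads came from was not analysed here.

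Other genes of the pathway were taken from 8 lists. Of the 10 measured of 17 other CREB and ATF factors, 1 was at least 2-fold higher at 1 h and 1 at 6 h, and 9 were neither each time. The rule called 1.58% and 4.92% of all genes higher at these times. Both times the higher factor was Atf4, the factor of the integrated stress response, with 386, 1012 and 1186 reads and ratios of 2.34 (2.08 to 2.64) and 2.91 (2.59 to 3.27). Jdp2, a bZIP repressor, was 2.19-fold higher at 6 h than at 1 h (1.15 to 4.37). Jdp2 had 15 reads at 1 h and 31 at 6 h. It passed the read minimum only through the 6 h library, in which it was high, so this call is a description. The list medians were 0.01 and 0.22 on the log2 scale at 1 h and 6 h. Among 5 measured C/EBP, PAR and CHOP factors none met the rule at 1 h, which is near the background for a list of this size. At 6 h Cebpg, a C/EBP without activation domain, was 2.39-fold higher (1.83 to 3.15). Dbp, a PAR activator that shares binding sites with Nfil3, had 27, 31 and 7 reads and a ratio of 0.245 (0.0901 to 0.577). Against 1 h the 6 h ratios of these 2 genes were 2.40 (1.86 to 3.13) and 0.239 (0.0890 to 0.554). In both comparisons Dbp passed the read minimum only through the earlier library, in which it was high, so its calls are a description.

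None of 7 measured MAF and CNC partners met the rule at 1 h or 6 h against 0 h, and log2 ratios ran from -0.37 to 0.23 and from 0.07 to 0.72. Bach2, a CNC repressor that pairs with small MAFs, was 2.07-fold higher at 6 h than at 1 h (1.53 to 2.83). All 7 CREB coactivators were measured and none met the rule in any comparison, with medians of -0.32 at 1 h and -0.31 at 6 h. With 1.58% of all genes called higher at 1 h and 4.92% at 6 h, a count of 0 in lists of 7 genes is near the background and is no result about either list. At 6 h their log2 ratios ran from -0.91 to -0.04.

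The SIK list (10 of 10 measured) held SIK kinases and class IIa deacetylases, and also Stk11, Mef2a, Mef2c and Mef2d, which are neither. None of the 10 was called at 1 h, with a median of -0.02, where 1.58% of all genes were called higher and 1.43% lower. At 6 h the median was 0.81 and 2 were higher, where 4.92% of all genes were called higher. These were Hdac9, a class IIa deacetylase gene with 256, 278 and 884 reads, at 3.27 (2.84 to 3.77), and Mef2c, a transcription factor bound by these deacetylases, at 2.44 (2.13 to 2.80). Against 1 h, 4 of the 10 were higher at 6 h, where the rule called 4.17% of all genes higher. The 3 with bounds farthest from 1 were Hdac9 at 3.37 (2.94 to 3.87), Sik3 at 3.05 (2.39 to 3.93) and Hdac4 at 2.73 (2.14 to 3.51), where Sik1 itself stood at 0.873.

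Of 22 measured CREB kinases and regulators, none met the rule at 1 h (median 0.01), where it called 1.58% of all genes higher and 1.43% lower. At 6 h 1 of the 22 met it, where it called 4.92% of all genes higher and 5.42% lower. This was Pkig, an inhibitor of protein kinase A, at 2.40 (1.23 to 4.97). Pkig had 13 reads at 0 h and 33 at 6 h. It passed the read minimum only through the 6 h library, in which it was high, so this call is a description. Against 1 h, at 6 h Rps6ka3, which encodes the kinase RSK2, was 2.15-fold higher (1.45 to 3.22) and Rps6ka5, which encodes the CREB kinase MSK1, had a ratio of 0.490 (0.418 to 0.574). Of 14 measured genes of cAMP synthesis and breakdown none met the rule at 1 h, and at 6 h 1 of 13 did, the phosphodiesterase gene Pde4d, at 2.32 (2.04 to 2.65). The counts in these 2 lists are near the shares over all genes and are no result about either list. Among commonly cited CREB target genes 13 of 18 measured were higher at 1 h, against 1.58% of all genes. At 6 h 12 of 18 were higher, against 4.92%, and the medians were 2.85 and 2.32. The targets with bounds farthest from 1 at 1 h were Nr4a1, Fos at 123-fold (80.4 to 199) and Fosb at 170.3-fold (58.0 to 828). Nr4a1 had 0 reads at 0 h and was 109-fold higher with the floor of 3 reads in their place (lower counting limit 88.3). At 6 h the farthest were Fos at 39.5-fold (25.7 to 64.1), the neuropeptide precursor gene Vgf at 56.4-fold (19.0 to 276) and Nr4a1, 22.7-fold higher against that floor (lower counting limit 17.99). Between 1 h and 6 h, 7 of 19 were lower and 3 higher, against 4.63% and 4.17% of all genes. Farthest from 1 were the immediate early genes Egr1 at 0.0930 (0.0773 to 0.111) and Junb at 0.115 (0.0903 to 0.146) and the phosphatase gene Dusp1 at 0.148 (0.116 to 0.187). Of the 3 higher, named after their values were seen, Rgs2 stood at 3.06 (2.69 to 3.50), Pcsk1 at 3.43 (2.58 to 4.63) and Vgf at 2.60 (1.97 to 3.46). This list was drawn up with the response of several of its genes known, so its counts are a description.

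**Figure D4:**
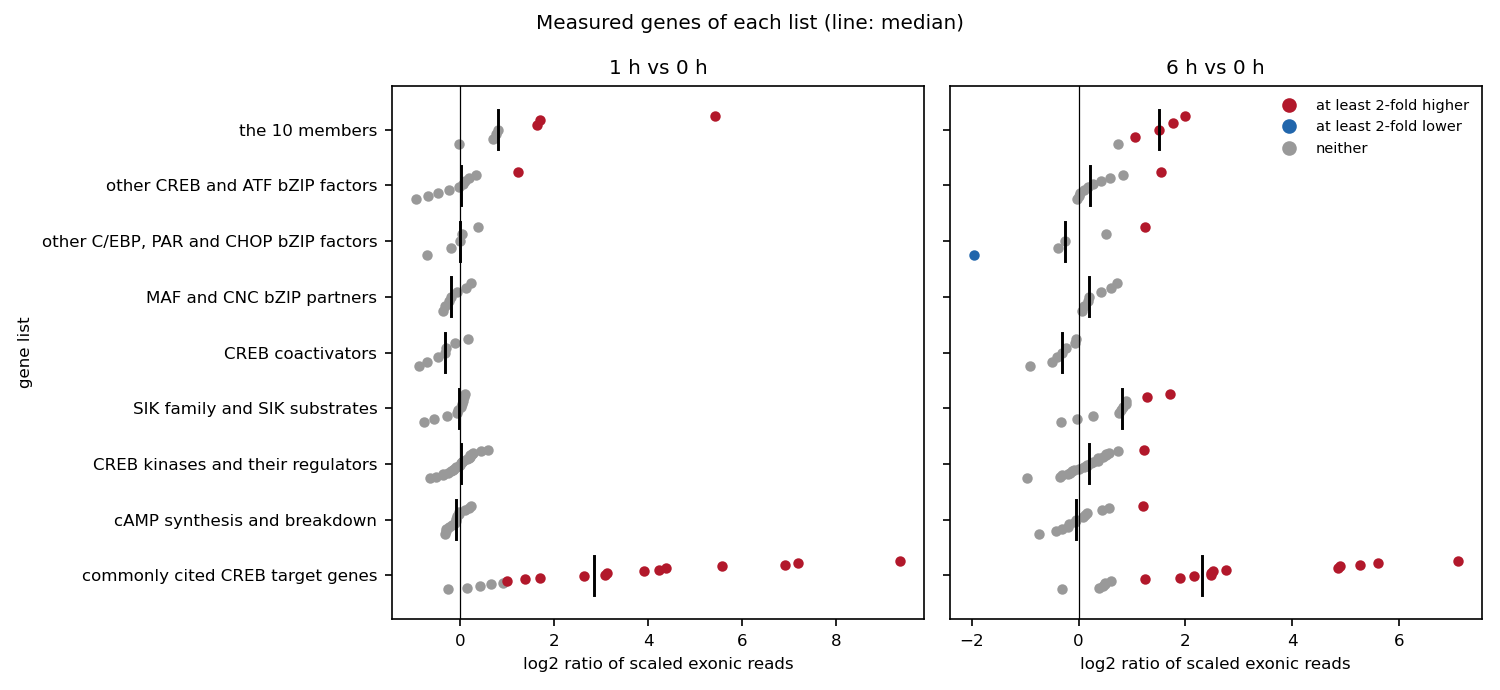
Log2 ratio of scaled exonic reads to the 0 h library at 1 h (left) and 6 h (right) for each measured gene of the 10 members and of 8 pathway lists, with a line at the list median; red is at least 2-fold higher, blue at least 2-fold lower and grey neither, and a gene with 0 reads at 0 h is drawn with a pseudocount of 0.5. At 1 h red points lie among the members, the CREB targets and Atf4, and at 6 h all lists except the MAF and CNC partners and the CREB coactivators hold at least 1.

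The genes closest to each called member in the pair of log2 ratios, at 1 h and 6 h against 0 h, were sought among 8538 other genes with at least 100 reads over the 3 libraries. Closest to Crem were AI836003 (Ccdc184) and Cd44, at distances of 0.04 and 0.11. Nfil3 was closest to Psph (0.08) and BC022623 (Fam43a, 0.13), Sik1 to Gla (0.06) and Klf6 (0.08), and Mafk to Olfm3 (0.02) and Ogfod1 (0.04). For Atf3 they were the cochaperone gene Dnajb1 (0.13) and Frat2 (0.16). The closest to Maff were Junb, with 13, 726 and 79 reads, at 0.53 and Npas4, with 9, 802 and 163, at 1.33. Maff held 1 read at 0 h, so its log2 ratios depend on the pseudocount and these distances are uncertain. Likeness over 3 libraries is a description of these libraries only.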

How the data were processed

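Sense and antisense reads were deposited as whole-number counts per gene, exon, intron and splice junction, which per the file headers and counting logs are not normalised. Per those logs the input was 35 bp reads with a single match, allowing 3 mismatches, on mm9 or a RefSeq splice library, without collapsing reads that share a position. The sources used here give no aligner. The authors' coverage signal is read bases per exonic base, scaled to 10000000 mapped reads and corrected for mappability, per the counting logs; it was used for levels between genes and as an alternative. An exonic count is the sum of exon and junction reads.

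Counts of all genes were scaled with TMM factors (edgeR 4.0.16, R 4.3.3). Ratios carry Clopper-Pearson intervals on the split of reads between 2 libraries, shares carry exact binomial intervals, and levels carry exact Poisson intervals. Odds ratios carry conditional exact intervals (scipy 1.17.1, numpy 2.4.6, pandas 2.3.3, Python 3.11.15). All intervals cover counting error only, and reads carry no molecular identifiers. Log2 ratios used a pseudocount of 0.5 reads. With 1 library per time no p-value was computed. Alternatives were DESeq2 1.42.0 size factors, other library totals, the coverage, read minimums of 10, 50 and none, and a fold of 1.5.

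The members and lists were chosen with earlier results of these data known. All members were named, with up to 3 called genes per list and comparison and the 2 closest genes per called member. Of 111 list entries, 8 were matched by gene identifier through RefSeq (GRCm38.p6), which was used for names only. Coordinates of genes are those of the files, on mm9.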

Additional observations from a re-analysis of the deposited data

How the results depend on the processing

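Member counts at the read minimum of 20 and the fold of 2 were compared with the alternatives. With a fold of 1.5, 5 members were higher at 1 h in place of 3, and 3 were higher from 1 h to 6 h in place of 1. With a minimum of 50 reads, 1 member was lower from 1 h to 6 h in place of 2. Atf3 (43 reads at most) and Mafk (27) lose their calls under that minimum, and with a minimum of 10 or none Maff is called higher at 6 h, since these alternatives by construction test other genes. The share of Crem exonic reads downstream of the short-form start at 0 h was 100% without its junction reads. With introns 1 to 3 left out, the intronic ratio of Crem at 1 h was 2.43 in place of 1.70. Other counts shifted as well. Members higher at 1 h numbered 4 with total mapped reads or the coverage and 2 with a minimum of 50, in place of 3. At 6 h they numbered 3 with total exonic reads or a minimum of 50, in place of 4. They numbered 5 with a minimum of 10 or none, or with a fold of 1.5. Of the single-gene ratios 208 stayed within their intervals. The 2 that did not were Creb1 at 1 h, at 1.16 both with total mapped reads and with the authors' coverage, and no called ratio reversed. Total mapped reads move the median of all genes by 0.24 and 0.15 on the log2 scale at 1 h and 6 h, total exonic reads by -0.10 at 6 h, and the genome-wide split moves too: higher genes made 85.1% of calls at 1 h with total mapped reads and 85.2% with the coverage. At 6 h they made 47.6% in the values reported, 35.6% with total exonic reads and 64.5% with total mapped reads, and from 1 h to 6 h 47.4%, 35.4% and 36.0%. No paired analysis was possible because each time has 1 library and the labels give no replicate numbers. For the same reason no library could be left out. Depth limits Atf1, Cebpb and Cebpd, and the floor of 3 reads was 1.34, 1.19 and 1.27 RPM at 0, 1 and 6 h.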

Other observations

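Antisense reads over the members were few. Over the exons of Maff they numbered 3, 1 and 8 at 0, 1 and 6 h, and over its introns 4, 9 and 2, the highest antisense counts of any member at 6 h and 1 h. The intron of Nfil3 held 6, 4 and 6 antisense reads. The 500 bases downstream of Crem held 6, 3 and 5 sense reads, the highest such sum of the 10 members.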
